A study of Mus musculus with 2 samples.

Results

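The 49 ribosome biogenesis factors described here are nucleolar and ribosome assembly genes listed by symbol, under a rule that uses no measured value although it was written with earlier results of these data known, out of 32286 features counted in single cells of mouse bone marrow. All 49 were found and all had UMIs in both libraries together. The marrow was profiled by droplet-based sequencing of transcript 3′ ends in 2 libraries of hematopoietic cells, 1 per genotype, and the stated aim was to compare expression after MYC overexpression in hematopoietic stem cells. The control library had the genotype Mx1Cre+/-;Rosa26+/+, so it carried the Cre without a target, and the MYC library had Mx1Cre+/-;Rosa26LSL-MYC/LSL-MYC, in which Cre can remove a stop cassette ahead of a MYC transgene at both copies of the Rosa26 locus. Mx1-Cre is an interferon-inducible Cre that is active in many marrow cell types besides stem cells; the age, sex and number of mice, and how or when Cre was induced, are not given in the sources used here. With 1 library per genotype, genotype and library cannot be told apart, no test was possible, and every interval below is an exact 95% interval that covers counting error only.

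Ribosomes are built in the nucleolus. RNA polymerase I transcribes a long precursor of the ribosomal RNAs, small nucleolar ribonucleoproteins guide its chemical modification, and assembly factors and helicases fold, cut and package it with ribosomal proteins into the small and the large subunit. MYC is known to bind and raise the transcription of many of these genes, and blood stem and progenitor cells, which divide and grow, are known to need more ribosome production than mature granulocytes.

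After filters, 14760 control cells and 12645 cells of the MYC library were kept, with 119905786 and 102740700 UMIs, and 77 kept barcode sequences occurred in both. Cells were clustered without the members, and a class name stands for cells carrying the markers of that type (stem-like, monocyte-like and so on). In all, 9 classes had at least 100 cells in each library. The stem or multipotent progenitor class, led by Mecom, Meis1 and Angpt1, held 192 cells in the control library against 198 in the other, and the remaining classes held 141 to 3577 cells per library. The MYC feature had 0 UMIs in the control library, against 295 in the other, or 2.87 CPM (UMIs of a feature per 1000000 UMIs of the cells named, interval 2.55 to 3.22). It was highest in mature neutrophils at 11.0 CPM, stood at 1.79 CPM in monocytes, rested on 6 UMIs in the stem class (1.51 CPM), and had 0 UMIs in mature B cells of the MYC library, so among the 9 classes it rested on at most 6 UMIs outside neutrophils and monocytes.

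Promoter sequence is shown first because MYC with its partner MAX binds the E-box CACGTG, which reads the same on both strands. RefSeq promoter windows (GRCm38.p6, 250 bases before to 50 bases after the annotated start) were held for 44 members; Fbl, Npm1, Rrp12, Rrs1 and Bop1 had none in the table. CACGTG was found in the windows of 12 of the 44 members (27.3%), beside 8.09% of 27025 genes with a window, and the members' median GC content was 58.2%, beside 52.8%. A match describes letters in the window, and binding was not measured here. The 13 matches are printed 5′ to 3′ on the strand of the gene with the E-box in capitals and up to 12 bases on each side, and 9 of the 13 began 2 to 40 bases after the annotated start.
Imp4, chr1:34439696-34439725 (+): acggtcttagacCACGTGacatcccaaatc
Nop2, chr6:125131811-125131840 (+): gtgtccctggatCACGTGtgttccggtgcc
Grwd1, chr7:45830740-45830767 (-): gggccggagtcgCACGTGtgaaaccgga
Utp4, chr8:106893643-106893672 (+): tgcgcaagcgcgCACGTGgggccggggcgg
Ltv1, chr10:13193092-13193121 (-): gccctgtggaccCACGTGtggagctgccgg
Utp20, chr10:88826765-88826789 (-): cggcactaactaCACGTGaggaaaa
Pes1, chr11:3963965-3963994 (+): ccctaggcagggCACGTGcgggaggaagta
Mybbp1a, chr11:72441355-72441376 (+): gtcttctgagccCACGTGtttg
Tsr1, chr11:74898092-74898121 (+): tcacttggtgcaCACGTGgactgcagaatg
Nle1, chr11:82908355-82908384 (-): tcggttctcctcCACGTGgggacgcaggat
Rrn3, first match, chr16:13780472-13780501 (+): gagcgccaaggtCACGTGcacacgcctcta
Rrn3, second match, chr16:13780639-13780668 (+): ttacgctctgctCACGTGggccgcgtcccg
Wdr43, chr17:71616220-71616249 (+): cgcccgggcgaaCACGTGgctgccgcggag
The flanks differed from gene to gene while the core was fixed by the search. The 250 bases before the start are printed whole for Rrn3, the member with 2 matches, and for Nhp2. Nhp2 was the member at least 1.5-fold higher in the most classes, and its window held no CACGTG. Sequences close to CACGTG were not counted, such as the CGCGTG in the 50 bases of the Nhp2 window that are not printed.
Rrn3, chr16:13780449-13780698 (+): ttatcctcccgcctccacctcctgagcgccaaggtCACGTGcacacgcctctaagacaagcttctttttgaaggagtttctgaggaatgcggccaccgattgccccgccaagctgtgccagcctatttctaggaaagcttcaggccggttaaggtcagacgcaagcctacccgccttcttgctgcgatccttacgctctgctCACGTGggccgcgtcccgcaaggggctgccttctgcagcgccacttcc
Nhp2, chr11:51619523-51619772 (+): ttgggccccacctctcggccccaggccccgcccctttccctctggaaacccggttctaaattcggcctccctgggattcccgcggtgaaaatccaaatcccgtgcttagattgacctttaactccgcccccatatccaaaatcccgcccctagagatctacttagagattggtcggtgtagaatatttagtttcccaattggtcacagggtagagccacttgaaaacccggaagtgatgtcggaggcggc
Members with a match had the lower median ratio between libraries in every class but mature neutrophils (0.12 with and -0.04 without) and mature B cells (0.09 and 0.07). In the stem class the median log2 ratio of MYC over control was 0.09 over the 12 members with a match and 0.23 over the 32 without, and in monocytes it was 0.31 and 0.50. Members with and without a match were not matched for coding length, with which the ratio also varied. The part of length in this split was not tested. Rrn3 itself, the factor that makes RNA polymerase I competent to start, had 28.3 CPM in control and 20.1 CPM in MYC-library stem cells. That was the smallest ratio of the 49 members in the stem class (-0.48 on CPM with 1 added). Over the 8 classes where Rrn3 had at least 50 UMIs over both libraries, its ratio was above 0 in 3.

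The members were abundant in progenitors and scarce in neutrophils in both libraries. Their summed level in the control was 7548 CPM in stem or multipotent progenitors, 5702 CPM in erythroid cells, 4479 CPM in granulocyte progenitors, 3508 CPM in T or NK cells, 3489 CPM in monocytes, 3342 CPM in mature B cells, 2964 CPM in basophils or mast cells, 731 CPM in immature neutrophils and 717 CPM in mature neutrophils. The erythroid class pools cluster 13 at 11452 CPM, above the stem class, with cluster 12 at 1795 CPM. Neighbours in the order of pooled classes were apart by more than their counting intervals, with exceptions. T or NK cells and monocytes overlapped (3438 to 3578 against 3461 to 3518 CPM). The neutrophil classes overlapped as well (721 to 741 against 699 to 735 CPM). Endogenous Myc was likewise highest in the control stem class at 117 CPM, with 61.9 CPM in granulocyte progenitors, 34.7 CPM in erythroid cells and 1.93 CPM in immature neutrophils.

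**Figure D1:**
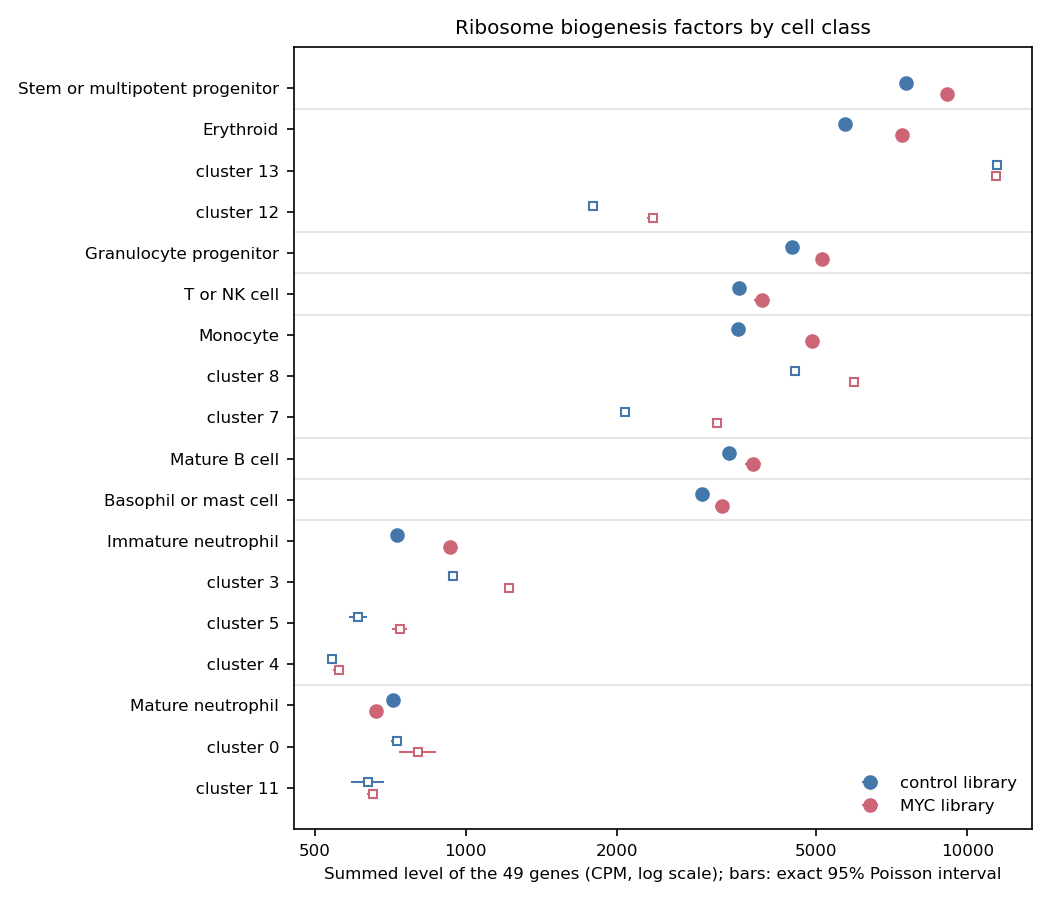
Summed level of the 49 genes (CPM, log axis) in each class (filled circles) and, where a class is made of several clusters, in each cluster (open squares), for the control (blue) and MYC (red) library, with exact 95% Poisson intervals. The MYC library is higher in every class but mature neutrophils, and erythroid cluster 13 is level at 11452 and 11408 CPM.

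A few abundant genes carried much of the sum. UMIs from transcript 3′ ends are meant to count 1 per captured molecule, so CPM was not divided by gene length; capture can still differ between genes, and the ratio between libraries varied with coding length. Npm1, a nucleolar chaperone, made up 25.2% of the members' UMIs in control stem cells, and Ncl, the nucleolin that binds nascent rRNA, made up 19.8%. The scarcest members in that class were Nle1 at 13.1 CPM and Polr1e at 13.6 CPM. Of the 49 members, 40 had their highest control level in the stem class when whole classes are compared. Ubtf, Bysl, Ddx47 and Mrto4 were highest in erythroid cells, and Rrs1, Rrp1b and Ebna1bp2 in granulocyte progenitors. Polr1e was highest in basophils or mast cells and Polr1a in mature neutrophils. Within the erythroid class, Ncl and Npm1 stood higher in cluster 13 than in the stem class, as given below. Mature neutrophils were the lowest class for 30 members and immature neutrophils for 18.

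The range over classes differed between members. Grwd1, a large subunit assembly factor, spanned 60.5-fold in the control, from 0.37 CPM in immature neutrophils to 22.1 CPM in the stem class. Its immature neutrophil level rested on under 50 UMIs over both libraries, so that fold is imprecise. Ddx47, a helicase, had the narrowest range, and Ubtf spanned 3.05-fold and Imp4 4.56-fold. Polr1a, the largest subunit of RNA polymerase I, ran against the rest, with 96.9 CPM in control mature neutrophils against 47.0 CPM in the stem class. Its partner subunits were nearly absent in the same mature neutrophils: Polr1b had 0.82 CPM (7 UMIs), Polr1c 3.28 CPM (28 UMIs) and Polr1e 0.70 CPM (6 UMIs). Polr1a alone was 13.5% of the members' UMIs there, and Ubtf 10.9%. An opposite-strand gene, Gm26628, overlaps Polr1a and had no UMI in that class of the control library.

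Between libraries, the summed level was higher in the MYC library in 8 of the 9 classes. It was 7548 and 9112 CPM in stem or multipotent progenitors (log2 ratio 0.27, interval 0.25 to 0.29), 3489 and 4909 CPM in monocytes (0.49, 0.48 to 0.51) and 731 and 932 CPM in immature neutrophils (0.35, 0.33 to 0.38). Erythroid cells had 5702 and 7404 CPM (0.38, 0.36 to 0.39) and granulocyte progenitors 4479 and 5135 CPM (0.20, 0.18 to 0.21). The differences were smaller in mature B cells (0.16), T or NK cells (0.15) and basophils or mast cells (0.13), and mature neutrophils were lower (-0.11, -0.16 to -0.06). Endogenous Myc moved with the sum in some classes and not in others: it went from 117 to 153 CPM in the stem class and from 34.7 to 57.9 CPM in erythroid cells, but from 61.9 to 50.01 CPM in granulocyte progenitors, and stood at 18.2 and 18.5 CPM in monocytes.

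Per cell at equal depth, the medians were higher in the MYC library in the stem class, granulocyte progenitors, monocytes, erythroid cells and mature B cells, and equal in the other 4 classes. In those 4 the control and MYC-library means were 1.34 and 1.66 in immature neutrophils and 1.42 and 1.35 in mature neutrophils. They were 4.69 and 5.22 in basophils or mast cells and 6.10 and 6.79 in T or NK cells. With each cell thinned to 2000 UMIs, leaving out 1 control cell and 3 cells of the MYC library that were shallower, the median control stem cell held 13 member UMIs (quartiles 10 and 17) and the median MYC-library stem cell 16 (12 and 21). Unthinned, the mean was 171 and 183 UMIs per cell, at median depths of 20852.5 and 16497.5 UMIs. The median monocyte held 5 (3 and 7) and 7 (5 and 11) after thinning, with 19 and 18 shallower cells left out, and 48.1 and 76.0 on average before it. The quartile ranges of the libraries overlapped in both classes.

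Ratios given for 1 gene or a sum are of plain CPM, and those in counts and medians over genes are of CPM with 1 added. A gene was counted as higher or lower where its level differed at least 1.5-fold, on CPM with 1 CPM added, among features with at least 50 UMIs in the class over both libraries. Over all 9 classes, 397 of the 441 pairs of a member and a class had that depth, 80 were higher (7.67% of such pairs over all features were) and 12 lower (16.9%), and 31 members reached it in every class. In stem or multipotent progenitors 5 of 49 members were higher (6.45% of all 9370 features tested were) and 0 were lower (11.6%). In granulocyte progenitors 5 of 49 were higher (background 4.69%) and 0 lower (20.1%). In immature neutrophils 16 of 47 were higher (6.68%) and 1 lower (12.8%), and in mature neutrophils 2 of 33 were higher (7.78%) and 2 lower (20.6%).

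The largest shares of members past the fold were in monocytes, erythroid cells and immature neutrophils. Monocytes had 17 of 49 higher (background 6.65%) and 0 lower (13.5%), and erythroid cells 18 of 49 higher (12.4%) and 0 lower (17.2%). Basophils or mast cells had 6 of 38 higher (8.26%) and 1 lower (20.1%), and mature B cells 5 of 41 higher (6.84%) and 3 lower (27%). T or NK cells had 6 of 42 higher (10.2%) and 5 lower (13.6%), near the background in both directions. Over all kept cells 3 of 49 were higher (5.09%) and 1 lower (13.6%); they were Nhp2, Nop16 and Mrto4, and Ubtf.

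The median log2 ratio of the members stood above that of all features in every class, and by how much varied. It was 0.48 in monocytes (all features tested: -0.14), 0.45 in erythroid cells (-0.08), 0.45 in immature neutrophils (-0.17) and 0.20 in the stem class (-0.11). It was 0.12 in mature B cells (-0.29), 0.07 in granulocyte progenitors (-0.24), 0.05 in basophils or mast cells (-0.18), 0.03 in mature neutrophils (-0.20) and 0.01 in T or NK cells (-0.06). Members above the all-feature median numbered 48 of 49 in monocytes, 44 of 47 in immature neutrophils, 44 of 49 in erythroid cells, 43 of 49 in the stem class, 35 of 41 in mature B cells and 39 of 49 in granulocyte progenitors. They numbered 25 of 33 in mature neutrophils, 24 of 38 in basophils or mast cells and 23 of 42 in T or NK cells. Ribosomal protein genes summed to 213213 CPM in control and 297105 CPM in MYC-library stem cells, and with them left out of the total the members' median there was 0.36. Without the 20 most abundant features in the total it was 0.058, and at Leiden resolution 2 only 1 of 49 members was past 1.5-fold higher (all features: 5.4%). Scaling by the median of ratios, which sets the all-feature median near 0, changed the counts to 10 higher and 0 lower in the stem class (all features: 10.3% and 6.99%), 11 and 0 in granulocyte progenitors (13.4% and 6.34%), 15 and 1 in mature B cells (15% and 12.6%) and 5 and 1 in mature neutrophils (13.5% and 11.3%).

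**Figure D2:**
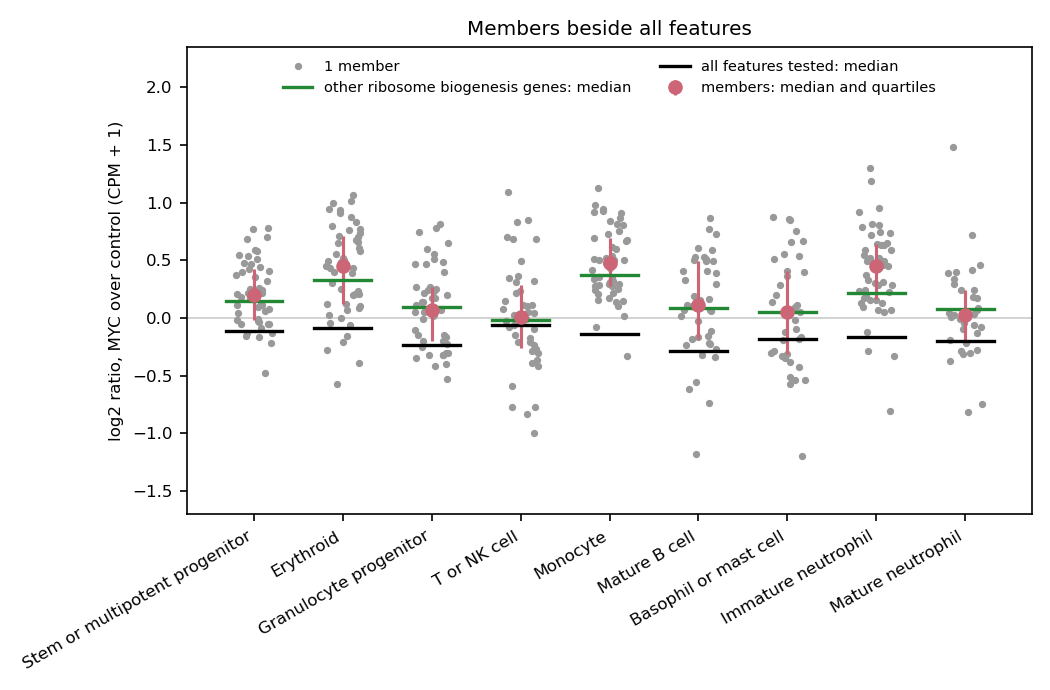
log2 ratio of MYC over control (CPM with 1 added) of each member with at least 50 UMIs (grey points), the members' median with quartiles (red), and the medians of the other ribosome biogenesis genes (green line) and of all features tested (black line), by class. The members' median lies above the black line in all 9 classes, farthest in monocytes and immature neutrophils and least in T or NK cells.

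Among the RNA polymerase I genes, Ubtf had a ratio below 0 in 8 of 9 classes, and no other was past 1.5-fold lower in any. Over the 6 genes the summed level over all kept cells was 195 CPM (control) and 149 CPM (MYC) (log2 ratio -0.38, -0.41 to -0.35). In single classes the sum ranged from -0.67 in basophils or mast cells to -0.01 in monocytes. Ubtf, the factor that keeps ribosomal DNA open for transcription, had 112 and 68.4 CPM over all kept cells (-0.71). It had 68.5 and 38.7 CPM in immature neutrophils (-0.83, -0.93 to -0.72), 78.5 and 44.1 CPM in mature neutrophils (-0.83, -1.01 to -0.65) and 132 and 57.2 CPM in basophils or mast cells (-1.21, -1.59 to -0.84). It was the only member at least 1.5-fold lower in 2 or more classes. In granulocyte progenitors it had 108 and 74.4 CPM (-0.54), in erythroid cells 209 and 140 CPM (-0.57) and in monocytes 99.7 and 78.9 CPM (-0.34), the smallest ratio of a member of at least 20 CPM in each. In the stem class the libraries did not differ beyond counting error (148 and 143 CPM, -0.22 to 0.12), nor in mature B cells (124 and 97.8 CPM, -0.74 to 0.04) or T or NK cells (113 and 120 CPM). Ubtf lies at chr11:102304560-102319742 on the minus strand of GRCm38 and has a coding length of 2292 bases.

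Polr1a had 96.9 and 74.7 CPM in mature neutrophils (-0.38, -0.52 to -0.23), 34.9 and 28.5 CPM in immature neutrophils (-0.29) and 26.0 and 31.6 CPM in monocytes (0.29, 0.11 to 0.46), so its sign differed between classes. Rrn3 had 25.3 and 20.7 CPM in erythroid cells (-0.29, -0.58 to -0.01). Polr1e was higher at 1.5-fold in 1 class, and Polr1b and Polr1c in none.

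The box H/ACA group, which guides pseudouridylation of rRNA, split within 1 complex: Nhp2 and Gar1 were higher in most classes, while Dkc1 and Nop10 were past 1.5-fold in none. Nhp2, an RNA-binding core protein, had 153 CPM in control stem cells and 250 CPM in those of the MYC library (log2 ratio 0.71, 0.57 to 0.85), 115 and 197 CPM in granulocyte progenitors (0.78, 0.68 to 0.88), 13.2 and 34.0 CPM in immature neutrophils (1.36, 1.20 to 1.53) and 87.7 and 192 CPM in monocytes (1.13, 1.05 to 1.22). It was higher at 1.5-fold in 7 of 9 classes and its interval lay above 0 in all 9. Gar1, the partner that helps release the substrate, was higher in 6 of 9, with 52.1 and 92.4 CPM in granulocyte progenitors (0.83, 0.68 to 0.97) and 31.6 and 61.7 CPM in monocytes (0.97, 0.82 to 1.11), but had 6.09 and 4.82 CPM in mature neutrophils. Dkc1, the pseudouridine synthase of the same particle, had 175 and 182 CPM in the stem class (0.06, -0.09 to 0.20). Nop10, a small core protein and the highest of the group, had 314 and 339 CPM there (0.11, with an interval from just above 0 to 0.22). Nhp2 lies at chr11:51619735-51623714 on the plus strand and Gar1 at chr3:129824912-129831396 on the minus strand of GRCm38, and the opposite-strand gene Rmnd5b overlaps Nhp2; the counting's use of strand is not given in the sources used here.

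The box C/D group, which guides methylation of rRNA, had smaller ratios. Fibrillarin (Fbl), its methyltransferase, had 9.74 and 17.5 CPM in immature neutrophils (0.85, 0.64 to 1.06) and 77.0 and 132 CPM in mature B cells (0.78, 0.41 to 1.14), but 126 and 125 CPM in granulocyte progenitors. Nop58, a core protein and the highest of the group in the stem class by its mean over both libraries, had 227 and 260 CPM there (0.20, 0.07 to 0.32) and 78.5 and 133 CPM in monocytes (0.76, 0.67 to 0.85). Rrp9, a protein of the small nucleolar particle that helps cut the precursor, was low but had 16.0 and 33.0 CPM in erythroid cells (1.04, 0.78 to 1.30). Nop56 was lower in mature neutrophils, 19.9 and 11.4 CPM (-0.80, -1.16 to -0.45), 1 of 2 members lower there.

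Among scaffolds and chaperones, Npm1 was above the control in all 9 classes with intervals that exclude 0. It had 1906 and 2512 CPM in the stem class (0.40, 0.36 to 0.44), 108 and 169 CPM in immature neutrophils (0.64, 0.58 to 0.70) and 106 and 120 CPM in mature neutrophils (0.18, 0.05 to 0.31). Ncl differed less and not always in that direction: 1498 and 1777 CPM in the stem class (0.25, 0.20 to 0.30), 547 and 776 CPM in monocytes (0.50), 157 and 179 CPM in immature neutrophils (0.19) and 151 and 122 CPM in mature neutrophils (-0.31, -0.42 to -0.19). Npm1 passed 1.5-fold in immature neutrophils and in no other class, and Ncl in none.

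The 10 small subunit factors had a median log2 ratio of 0.29 in monocytes and 0.43 in immature neutrophils, and their sum was lower in the MYC library in T or NK cells (-0.24, -0.46 to -0.02). Wdr43, a component of the early small subunit processome and the highest of the 10 in the stem class, had 163 and 195 CPM there (0.26, 0.11 to 0.41) and 9.21 and 18.2 CPM in immature neutrophils (0.99, 0.78 to 1.20). All 10 had a ratio above 0 in monocytes and in immature neutrophils, with 0 and 4 of them past 1.5-fold. Bysl, a late small subunit factor, was among the lowest ratios in erythroid cells, with 38.3 and 29.0 CPM (-0.40, -0.64 to -0.17). The opposite-strand gene Ccnd3 overlaps Bysl and had 414 and 252 CPM in the same cells, and whether reads were shared between them was not tested. Opposite-strand genes overlap 21 of the 49 members, and levels are given here for few of them. In monocytes Pbrm1, which overlaps Gnl3, had 182 and 133 CPM, while Gnl3 was higher in the MYC library. In T or NK cells 2 of 8 tested were lower, both named after their values were seen: Bysl with 22.5 and 10.8 CPM (62 and 9 UMIs), and Imp4 with 37.5 and 21.6 CPM (103 and 18 UMIs).

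The helicases differed from class to class. Ddx21, which acts in polymerase I transcription and rRNA processing, had 218 and 258 CPM in the stem class (0.25, 0.12 to 0.38) and 18.3 and 32.9 CPM in immature neutrophils (0.85). Ddx47 was among the smallest ratios in granulocyte progenitors with 32.9 and 24.4 CPM (-0.43, -0.66 to -0.20), and in monocytes had 39.6 and 37.6 CPM, which did not differ beyond counting error. Ddx10 also had level values in monocytes, 35.1 and 35.6 CPM. In mature B cells, of which the MYC library had 141, the 3 members lower were all helicases, named after their values were seen: Ddx47 with 43.6 and 18.7 CPM, Ddx10 with 46.1 and 27.3 CPM and Ddx18 with 73.3 and 47.5 CPM. In these B cells the S-phase list had 1340 and 666 CPM (-1.01) and the G2/M list 3895 and 1672 CPM (-1.22, 32 of 37 genes lower); their part in the members' values was not tested.

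The large subunit group had the highest median ratio of the 7 roles in the stem class (0.49), mature neutrophils (0.17), monocytes (0.77) and erythroid cells (0.72), and the box H/ACA group in the other 5 classes. In T or NK cells the large subunit median was -0.17, with 3 of 13 tested higher and 3 lower. The 16 genes summed to 459 and 734 CPM in monocytes (0.68, 0.64 to 0.72), where all 16 were above 0 and 12 past 1.5-fold, and to 975 and 1267 CPM in the stem class (0.38, 0.32 to 0.44). Mrto4, a factor that holds the place of the ribosomal stalk in the nascent large subunit, was higher in 6 of 9 classes: 62.4 and 108 CPM in the stem class (0.79, 0.56 to 1.01), 54.5 and 91.9 CPM in granulocyte progenitors (0.75), 42.4 and 84.7 CPM in monocytes (0.998, 0.87 to 1.12) and 66.7 and 112 CPM in erythroid cells (0.74). Wdr74, which works with a remodelling ATPase on early large subunit particles, was higher in 5 of the 6 classes where it was deep enough, with 28.0 and 57.6 CPM in erythroid cells (1.04, 0.84 to 1.23). Ebna1bp2, an early large subunit factor, had ratios of 0.48 to 0.89 in all 9 classes, each with an interval above 0, and was past 1.5-fold in 5.

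Among the other large subunit members, Nip7 was also past 1.5-fold in 5 of 9 classes, with a smaller median ratio over classes (0.60) than Wdr74 (0.79) and Ebna1bp2 (0.73). Nop16 had 19.9 and 42.8 CPM in erythroid cells (1.10, 0.87 to 1.33), the largest ratio of a member there. Gnl3, nucleostemin, a GTPase first described in stem cells and the highest of the 16 in the stem class, had 198 and 231 CPM there (0.22, 0.09 to 0.36) and 53.1 and 96.0 CPM in monocytes (0.85, 0.74 to 0.97). Bop1, Pes1 and Wdr12 form 1 complex, yet in erythroid cells Wdr12 had 44.7 and 87.2 CPM (0.96) while Bop1 had 23.1 and 22.1 CPM (-0.06), values chosen for mention after they were seen. Bop1 was among the smallest ratios in granulocyte progenitors, 26.3 and 20.8 CPM (-0.34, -0.60 to -0.08), where its opposite-strand neighbour Mroh1, which overlaps it, had 14.1 and 8.71 CPM. Nop16, Rrp1b and Rrs1, with Nhp2 and Mrto4, were the 5 members past 1.5-fold in the stem class; Rrp1b had 38.0 and 65.7 CPM there and Rrs1 32.9 and 53.4 CPM, named after their values were seen.

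**Figure D3:**
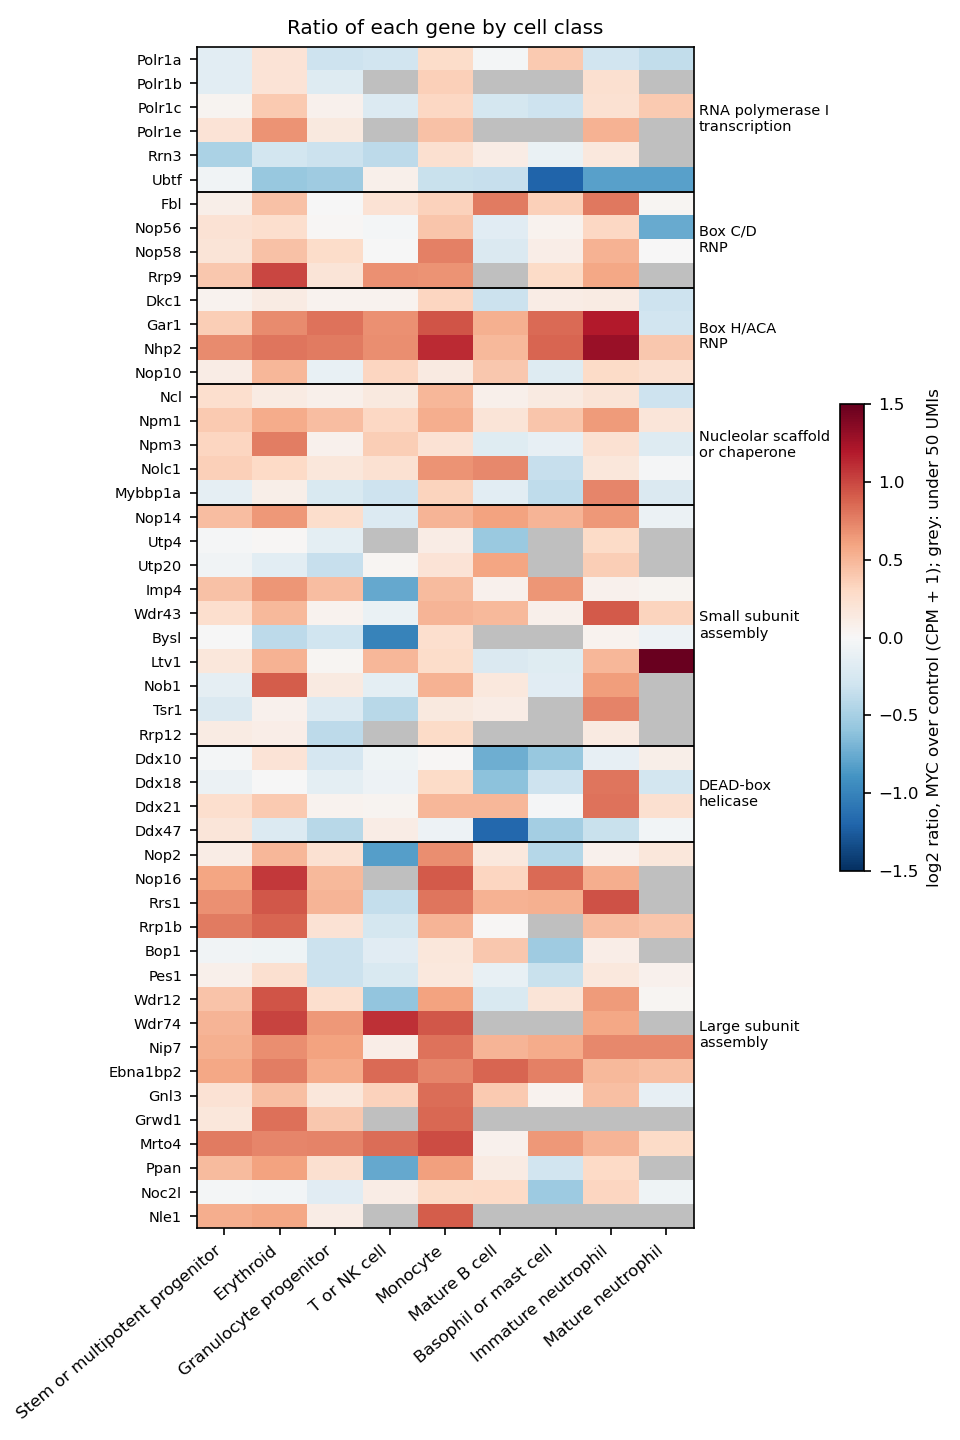
log2 ratio of MYC over control for each of the 49 members (rows, grouped by role) in the 9 classes (columns, ordered by the control level), on CPM with 1 added; grey cells had under 50 UMIs and colours saturate at -1.5 and 1.5. Gar1, Nhp2, Mrto4, Wdr74 and Ebna1bp2 are red in most columns and Ubtf is blue in most, except the stem and T or NK columns.

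**Figure D4:**
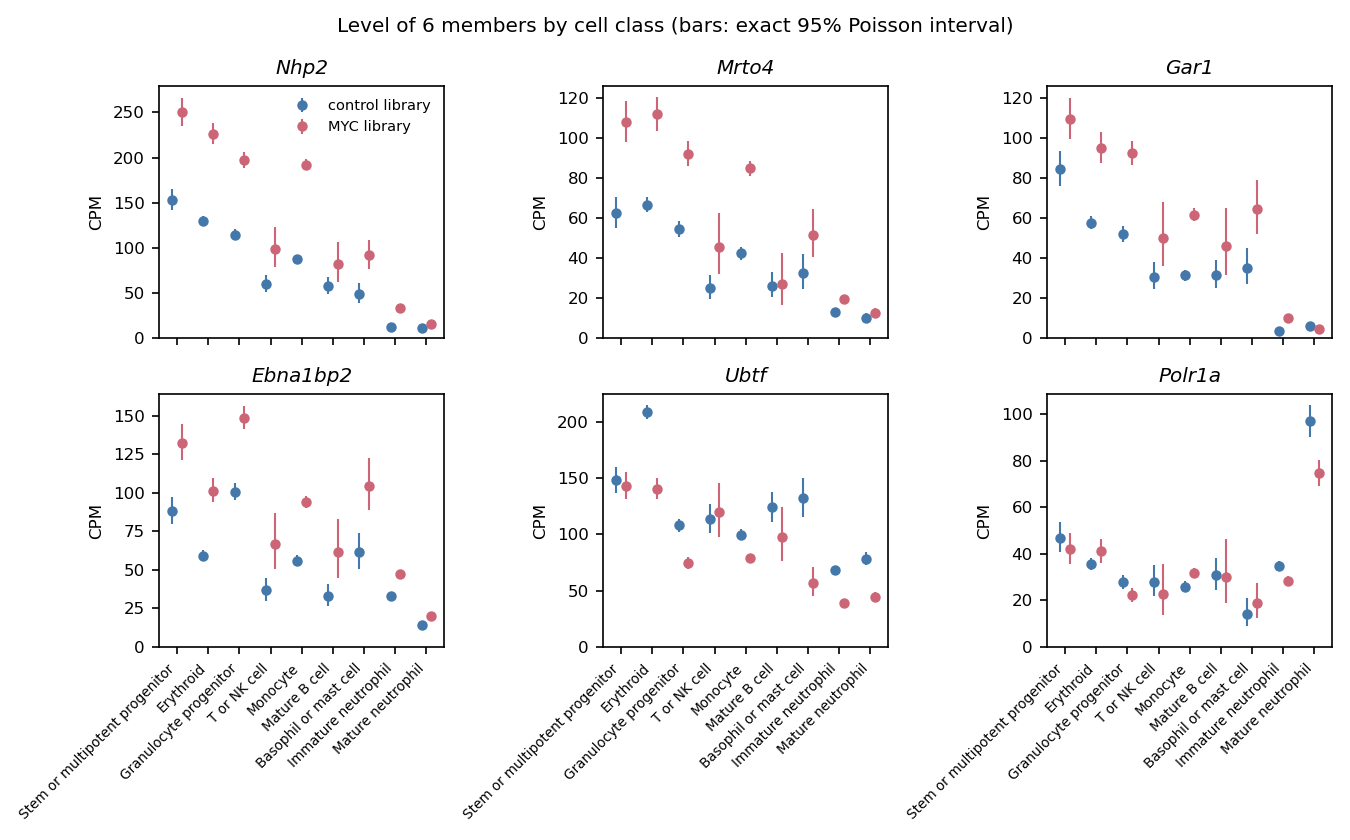
Level (CPM, linear axes from 0) of 6 members in the 9 classes, with exact 95% Poisson intervals, for the control (blue) and MYC (red) library. Nhp2 and Ebna1bp2 are higher in the MYC library in all 9 classes, Ubtf is lower in most, and Polr1a peaks in mature neutrophils in both.

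In erythroid cells the pooled class and its clusters gave different values. The class is made of cluster 13, an earlier stage with Car1 among its leading genes, and cluster 12, led by Hemgn. Cluster 13 made up 24.3% of control and 35.5% of MYC-library erythroid cells, and the members there summed to 11452 and 11408 CPM (-0.01, -0.02 to 0.01). Cluster 12 had 1795 and 2360 CPM (0.39, 0.35 to 0.43). The members' median log2 ratio was 0.07 in cluster 13, beside -0.17 for all features, with 34 of 49 members above the latter. In cluster 12 it was 0.49 beside -0.26, with 38 of 42 members above. Ncl was lower in cluster 13, with 2394 and 2013 CPM (-0.25, -0.29 to -0.21), though higher in the pooled class, and Npm1 had 2980 and 3289 CPM (0.14). Nop16 kept a ratio of 0.68 (0.45 to 0.92) in cluster 13, with 45.7 and 73.4 CPM, and Wdr74 one of 0.62, with 58.3 and 89.7 CPM. Ubtf was lower in both, with 198 and 125 CPM in cluster 12 (-0.67) and 224 and 153 CPM in cluster 13 (-0.55). In erythroid cells at or below the class median of cell cycle UMIs, a limit chosen after seeing the data, the members' median log2 ratio was 0.05 in place of 0.45, and 2 of 49 were past 1.5-fold higher (all features: 6.43%) in place of 18.

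In monocytes the difference was present in both clusters. Cluster 7, led by Arhgef37, Fn1 and Vcan, had 2075 and 3163 CPM (0.61, 0.58 to 0.64). Cluster 8, led by Nrg1 and Gria3 with F13a1 and Klf4 further down, had 4541 and 5941 CPM (0.39, 0.37 to 0.40). The S-phase list had 1282 CPM in cluster 7 and 3442 CPM in cluster 8 of the control, and the G2/M list 3432 and 15073 CPM. Nhp2 had 44.9 and 126 CPM in cluster 7 (1.49, 1.31 to 1.67) and 120 and 232 CPM in cluster 8 (0.95, 0.86 to 1.05). In monocytes at or below the class median of cell cycle UMIs the members' median was 0.64, beside 0.48 in all.

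Immature neutrophils were made up differently in the 2 libraries, with 955 and 1228 cells in cluster 3, 2125 and 1710 in cluster 4 and 497 and 523 in cluster 5. The difference was largest in cluster 3, led by Orm1, Chil3 and Camp and the one with the most S-phase UMIs, with 945 and 1219 CPM (0.37, 0.34 to 0.40). It was 610 and 739 CPM in cluster 5 (0.28) and 542 and 558 CPM in cluster 4 (0.04, -0.01 to 0.09). The leading genes of cluster 4 held Mmp8 and Mmp9 of the mature neutrophil marker list and none of the immature list. Its marker score was still highest for immature neutrophils. The members' median was 0.38 in cluster 3, 0.29 in cluster 5 and 0.10 in cluster 4, beside all-feature medians of -0.20, -0.21 and -0.20. In immature neutrophils at or below the class median of cycle UMIs the members' median was 0.19, beside 0.45 in all, and 4 of 39 members were past 1.5-fold higher (all features in those cells: 6.55%) in place of 16 of 47. In mature neutrophils different clusters held most cells of each library, cluster 0 with 2124 and 168 cells and cluster 11 with 276 and 1793. Within them the sums were 728 and 803 CPM (0.14, 0.01 to 0.27) and 638 and 653 CPM (0.03, -0.08 to 0.15), so neither cluster showed the lower level of the pooled class.

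The S-phase list and the members differed in sign in several classes. S-phase genes summed to 3319 CPM in control and 2899 CPM in MYC-library stem cells (-0.20), to 6644 and 4459 CPM in erythroid cells (-0.58) and to 2521 and 2340 CPM in monocytes (-0.11). A neutrophil transcript list that tracks free RNA had 7011 and 17210 CPM in mature B cells, 19165 and 30781 CPM in T or NK cells, and 9079 and 6316 CPM in the stem class; its part in the members' values was not tested.

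The ratio depended on gene length over the whole library. Across all features tested, the log2 ratio and the coding length (longest coding transcript, GENCODE vM21) had Spearman correlations of -0.52 to -0.35 in the 9 classes, over 6081 to 10387 features that share their libraries. In the stem class the median of all features went from 0.26 under 600 coding bases to -0.34 at 2500 or more. The members followed the slope at a higher level: 5 under 600 bases had a median of 0.53 and 8 of 2500 or more one of -0.04. Set against features of like coding length, a comparison chosen after seeing the data, the members' median difference was 0.29 in the stem class (44 of 49 above their bin's median), 0.35 in granulocyte progenitors (43 of 49), 0.58 in immature neutrophils (44 of 47), 0.66 in monocytes (46 of 49) and 0.53 in erythroid cells (45 of 49). It was 0.20 in mature neutrophils (26 of 33) and 0.11 in T or NK cells (26 of 42).

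The order of single members changed with length taken into account. Nhp2 codes for 459 bases and Mrto4 for 717, and over classes their median ratios of 0.78 and 0.73 became 0.51 and 0.60 against features of like length. Nop14, a small subunit factor, went from 0.51 to 0.88 and Wdr74 from 0.79 to 0.95, the largest of all members. Ubtf stayed below its bin with a median of -0.17, above it in 3 of 9 classes, and Nop10, which codes for 192 bases, went from 0.24 to -0.03. Npm3 (-0.02) and Ddx47 (-0.15) were the other members with a median below 0.

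**Figure D5:**
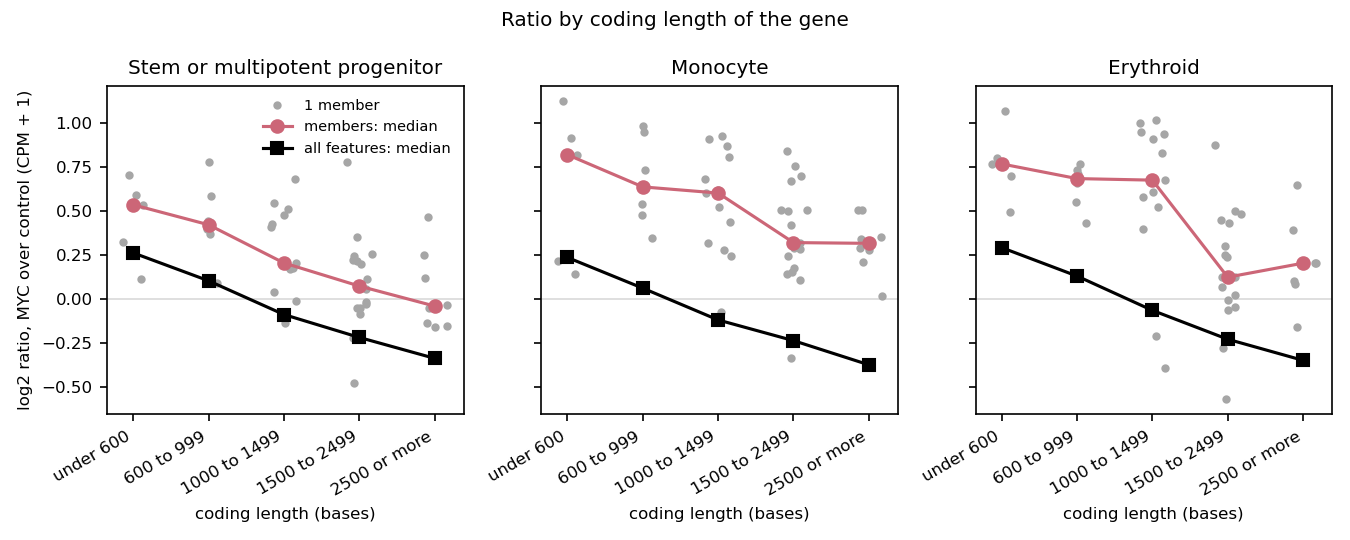
log2 ratio of MYC over control (CPM with 1 added) by coding length bin in 3 classes, with each member (grey), the members' median (red) and the median of all features tested (black). Both lines slope down, from 0.26 to -0.34 for all features in the stem class, and the members' line lies above the other in all 5 bins of the 3 panels.

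A list of 115 other ribosome biogenesis genes, chosen by function, was set beside the members. In the stem class 9 of 114 tested were higher (all features: 6.45%) and 0 lower (11.6%), with a median log2 ratio of 0.15, beside 0.20 for the members. Nmd3, the nuclear export adaptor of the large subunit, had 16.3 and 36.4 CPM there (1.15, 0.73 to 1.58), Abt1 11.7 and 23.3 CPM (0.99) and Znhit3 18.4 and 31.9 CPM (0.79). At the other end were Taf1d, a subunit of the polymerase I selectivity factor, with 351 and 237 CPM (-0.57, -0.69 to -0.45), Mdn1 with 94.9 and 65.7 CPM (-0.53) and Dhx37 with 14.0 and 10.5 CPM (-0.41, -1.02 to 0.18). In monocytes 18 of 115 were higher (all features: 6.65%) and 0 lower (13.5%), with a median of 0.37 beside 0.48 for the members. In erythroid cells 25 of 115 were higher (12.4%) and 0 lower (17.2%), with 0.33 beside 0.45. In immature neutrophils 17 of 114 were higher (6.68%) and 1 lower (12.8%), with 0.21 beside 0.45. The cytosolic ribosomal protein genes had larger medians than the members in these classes, 0.52 in the stem class, 0.60 in monocytes and 0.89 in erythroid cells.

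The granulocyte progenitor values were the least stable of the classes. Their median log2 ratio of 0.07 was -0.37 when each library was clustered on its own and 0.71 among the 335 control cells and 402 cells of the MYC library under 5% mitochondrial UMIs. The classes under 200 cells per library rest on few UMIs per member, as few as 50 over both libraries.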

How the data were processed

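Single-cell 3′ libraries (Chromium Single Cell 3′ kit per the labels' protocols) were made from bone marrow of 1 sample per genotype. Per the submitters' processing notes Cell Ranger 6.0 and the GRCm38/mm10 build were used, and Seurat is named there; how barcodes were called is not given in the sources used here. The authors deposited a matrix of raw UMI counts per library, with whole numbers that are not normalized. The rule for the members uses no measured value, but members and lists were chosen with earlier results of these data known.

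Cells with at least 500 UMIs, at least 200 genes and under 10% mitochondrial UMIs were kept, and predicted doublets (701 control, 251 MYC) were removed with Scrublet. Scrublet marked 4.53% and 1.95% of cells, where 13.7% and 11.6% were expected at 0.8% per 1000 barcodes, so doublets may remain; free RNA was not removed. Cells were clustered with the members left out of the variable genes (2000 genes, 30 components, 15 neighbours, Leiden resolution 1, scanpy 1.11.5), and clusters were named from marker lists. UMIs were summed per class and library and divided by the class total (CPM), with exact Poisson intervals and an exact conditional interval for the ratio at 95%. Classes with at least 100 cells per library were compared. The ratio code was checked on simulated data. Depth was 119905786 and 102740700 UMIs in kept cells.

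Genes named with values are, in classes of at least 200 cells per library, the 3 largest and 3 smallest ratios among members of at least 20 CPM, the most abundant of each role in the stem class, the 5 members higher in the most classes (ties by the larger median ratio, which left out Nip7), any lower in at least 2, and the 3 extremes each way of the other biogenesis genes. Gene positions and coding lengths came from GENCODE vM21 (all 49 members matched) and promoters from RefSeq. Alternatives changed scaling, minimum UMIs, pseudocount, cell filters and clustering.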

Additional observations from a re-analysis of the deposited data

Results flagged for a closer look

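Imp4 differed in direction between classes, with a log2 ratio of MYC over control of 0.69 in basophils or mast cells (22.8 and 36.7 CPM, from 40 and 54 UMIs) and -0.80 in T or NK cells (37.5 and 21.6 CPM, from 103 and 18 UMIs). Ddx18 had 0.87 in immature neutrophils and -0.63 in mature B cells. These differences between classes were not tested, and with 1 library per genotype each side is a single pair of libraries.

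Among cells outside the compared classes, 3 unnamed clusters had enough cells. The sum of the members was higher in the MYC library in clusters 2 and 21 and level in cluster 16. Cluster 16, the largest, with 2452 and 2624 cells of low depth, had 3348 and 3375 CPM (log2 ratio 0.01, -0.03 to 0.06). Its members' median was 0.03 beside -0.22 for all features, with 31 of 44 members above the latter. In cluster 2, led by Tmcc2 and Slfn14, they summed to 1099 and 1660 CPM (log2 ratio 0.59), with a members' median of 0.54 below the all-feature median of 0.60 (9 of 21 members above it) and a median depth of 4150 and 1772 UMIs per cell. Cluster 21 was led by H2-Eb1 and Mrc1, with H2-Aa, H2-Ab1, Cd74 and Axl also among its leading genes. There the members summed to 2633 and 3727 CPM (0.50), with a members' median of 0.38 beside -0.04 for all features.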

How the results depend on the processing

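Over the alternatives run, the members' median log2 ratio of MYC over control stayed above 0 in the stem class, immature neutrophils, monocytes, erythroid cells and mature B cells, and took both signs in the other 4 classes. The stem class gave no value at Leiden resolution 0.5 or with each library clustered on its own, where a library had no cell of that name. It stayed above the all-feature median in every class but granulocyte progenitors. The median was 0.36 in the stem class, 0.20 in granulocyte progenitors, 0.61 in monocytes, 0.66 in erythroid cells and 0.13 in T or NK cells without ribosomal protein genes in the total. With median-of-ratios scaling it was 0.33 in granulocyte progenitors, 0.62 in immature neutrophils, 0.20 in mature neutrophils, 0.63 in monocytes and 0.39 in mature B cells. Without the 20 most abundant features it was 0.058 in the stem class, where Nop10 reversed to -0.026. As a mean over cells it was 0.63 in erythroid cells. In granulocyte progenitors it was -0.030 with doublets kept, -0.040 at Leiden resolution 2 and -0.37 with each library clustered on its own, where the difference from all features reversed to -0.019; with no minimum of UMIs that difference was 0.18. In monocytes the median was 0.59 at Leiden resolution 2 (difference from all features 0.73) and 0.60 with each library clustered on its own. With a pseudocount of 5 CPM the difference in immature neutrophils was 0.36. Among cells under 5% mitochondrial UMIs the median and its difference from all features were 0.71 and 0.84 in granulocyte progenitors, where Bop1 reversed to 0.15, 0.69 and 0.81 in monocytes and 0.76 and 0.77 in erythroid cells.

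In cells at or below the class median of cycle UMIs, chosen after seeing the data, the median and its difference from all features were 0.068 and 0.17 in the stem class, -0.14 and 0.15 in granulocyte progenitors, 0.19 and 0.40 in immature neutrophils (Ncl reversed to -0.072), 0.64 and 0.74 in monocytes, 0.049 and 0.24 in erythroid cells, 0.60 and 0.79 in mature B cells and 0.16 and 0.22 in T or NK cells. The causes were not tested. The planned limit to cells with at most 1 cycle UMI left too few cells in every class and gave no value. Members past 1.5-fold higher numbered 1 (all features: 5.4%) to 13 (12.7%) of 49 in the stem class, 0 (2.91%) to 30 (13.9%) of 49 in granulocyte progenitors, 4 of 39 (6.55%) to 24 of 47 (11.7%) in immature neutrophils, 13 (4.2%) to 30 (14.5%) of 49 in monocytes and 2 (6.43%) to 32 (19.1%) of 49 in erythroid cells. No paired analysis was possible because each group is 1 library.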
